A study of Mus musculus with 4 samples.

Results

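The Hivep family was examined in ATAC-seq data from mouse T cells. Its members are Hivep1, Hivep2 and Hivep3, 3 of 21631 protein-coding genes. They were taken as a gene family, and Hivep3 had been chosen from its region counts, so the counts of regions per cell type and genotype are descriptions of what was selected. Every deposited peak that overlaps the RefSeq gene body, or the 10 kb on either side of it, counts as a region of that gene. By this rule the 3 genes held 228 regions over the lists together, with 72 of 76437 regions in Scd1-deficient DN3 cells, 82 of 76814 in control DN3 cells, 37 of 51297 in Scd1-deficient naive CD4 T cells and 37 of 46576 in control naive CD4 T cells. Regions of different lists that overlap by at least 1 bp were merged into a joint region, which gave 91 for the family of 90270 on chromosomes 1 to 19 and X.

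DN3 thymocytes are an early thymic stage that rearranges its T cell receptor beta genes. They were flow sorted as CD44- CD25+ cells without lineage, CD4 or CD8 markers, while naive CD4 T cells were isolated from the spleen with magnetic beads. Each cell type was taken from Scd1-deficient mice and from littermate controls whose titles read HZ, which the labels leave unexplained. All cells were untreated primary cells, and neither the age of the mice nor the number pooled per library is stated. There were 4 libraries, 1 for each genotype and cell type, so no test was made and no difference has a replicate check. The lists differ in length, read totals were not used here, and each library has its own scale of fold, the summit pileup over local background, and of −log10 q, the significance the authors' peak caller gave that summit. The pileup behind the summit, in fragments, was recovered from those values, and the background pileup of the libraries ranged between 3.653 and 5.116 fragments. Among the DN3 markers, all 9 had a region within 1 kb of a gene end in both DN3 lists, against 7 of 9 in Scd1-deficient naive cells and 6 of 9 in control naive cells. Ptcra and Rag2 were without one in both naive lists. By strength the order of the cell types for the DN3 markers depended on the measure. Summed over the 9, the highest −log10 q was 881.2 in Scd1-deficient and 956.8 in control DN3 cells. It was 1095 in Scd1-deficient and 1430 in control naive cells, on the own scale of each library. The median over the 9 ran the other way, with markers that lack a region ranked lowest. It was 77.9 in Scd1-deficient and 85.6 in control DN3 cells, against 73.0 in Scd1-deficient and 59.2 in control naive cells. All 9 naive CD4 markers had one in all 4 lists, and of 6 B cell markers, 3 had one in each list and Ms4a1 had none in any. Of 6 myeloid and dendritic markers, 4 had one in Scd1-deficient DN3 cells and 3 in each other list, and of 3 NK markers, 2 had one in each DN3 list and 1 in each naive list. The part of other cells in the results was not tested.

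Hivep proteins, also called Schnurri proteins, are very large zinc finger transcription factors with widely spaced pairs of fingers that bind DNA related to the NF-kB site. They also act as scaffolds for SMAD, AP-1 and Runx proteins. In mice, Hivep2 (Schnurri-2) is needed for efficient positive selection of thymocytes and restrains NF-kB in CD4 T cells. Hivep3 (Schnurri-3 or KRC) was isolated through its binding to the recombination signal sequences of antigen receptor genes, is known to raise Il2 transcription through AP-1 in T cells, and limits bone formation by Runx2. Hivep1, the founding member, binds kB-like enhancer sites in many cell types.

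The start sequences are shown because the genes differ in where accessibility met the annotated start. RefSeq windows of 300 bases, 250 before and 50 after a start (GRCm38.p6, the assembly of mm10, all on the plus strand for the Hivep genes), are given 5′ to 3′. Capitals mark the GC box GGGCGG, the TATA-like hexamer TATAAA, and their complements on the other strand, and adjoining matches run together. The E box reads the same on both strands, and none of the motifs searched contains another.
Hivep1: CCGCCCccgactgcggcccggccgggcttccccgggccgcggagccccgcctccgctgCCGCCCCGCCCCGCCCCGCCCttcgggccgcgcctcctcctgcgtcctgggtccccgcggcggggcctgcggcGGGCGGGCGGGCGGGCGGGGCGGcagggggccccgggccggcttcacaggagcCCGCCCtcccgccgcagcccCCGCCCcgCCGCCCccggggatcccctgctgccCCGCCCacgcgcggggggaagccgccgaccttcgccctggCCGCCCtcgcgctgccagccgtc
Hivep2: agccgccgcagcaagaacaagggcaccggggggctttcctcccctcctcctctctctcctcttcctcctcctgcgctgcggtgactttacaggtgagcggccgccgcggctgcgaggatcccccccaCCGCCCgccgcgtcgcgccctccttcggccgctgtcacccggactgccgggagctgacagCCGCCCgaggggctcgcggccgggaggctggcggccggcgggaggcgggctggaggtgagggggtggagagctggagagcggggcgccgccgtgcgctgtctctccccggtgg
Hivep3: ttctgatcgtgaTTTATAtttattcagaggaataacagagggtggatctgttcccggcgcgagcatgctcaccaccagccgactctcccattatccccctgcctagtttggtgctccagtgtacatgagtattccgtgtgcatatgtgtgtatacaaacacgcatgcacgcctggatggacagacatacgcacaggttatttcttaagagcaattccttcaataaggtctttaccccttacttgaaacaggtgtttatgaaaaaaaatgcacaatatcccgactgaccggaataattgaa
The Hivep1 window (chr13:42051771-42052070) had a GC content of 87.0% and 48 CpG dinucleotides, and held 15 GC boxes. The Hivep2 window (chr10:13966129-13966428) had 75.3%, 35 CpG and 2 GC boxes. The Hivep3 window (chr4:119814428-119814727) had 44.3%, 11 CpG and no GC box, and held 1 TATA-like hexamer on the minus strand. Over all 32851 windows of the same length the median GC content was 52.7%, the median number of CpG was 7, 35.7% held a GC box and 13.6% the TATA-like hexamer. None of the 3 windows held the E box CAGCTG (present in 16.3% of all windows on either strand) or the Runx hexamer TGTGGT (16.8%). These are matches of letters only.

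The Hivep1 window lay wholly inside a region in all 4 libraries. The start that the promoter table gives for Hivep2 lies 4.77 kb inside the annotated gene. The Hivep2 window was covered over all 300 bases in Scd1-deficient DN3 cells, 255 bases in control DN3 cells, 238 bases in Scd1-deficient naive cells and 300 bases in control naive cells. The Hivep3 window lies 80.9 kb inside the annotated gene, at the start that the promoter table gives, and was nearly free of regions. It shared 8 bases with a region of Scd1-deficient DN3 cells and none with the other lists. By deposited fold, the highest region of Hivep3 in control DN3 cells and in both naive libraries lay at the outer annotated start, at chr4:119733185-119734331, for which no sequence was used here.

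Hivep3, on chromosome 4 from 119733759 to 120138045, is the longest of the genes at 404.3 kb, and it held most of the family's regions in DN3 cells. It had 44 regions in Scd1-deficient DN3 cells and 53 in control DN3 cells, against 12 in each naive list. They covered 6.42% of the gene and its flanks in Scd1-deficient DN3 cells, 7.24% in control DN3 cells, 2.06% in Scd1-deficient naive cells and 1.93% in control naive cells. Of its 57 joint regions, 28 were DN3-restricted, meaning present in both DN3 lists and absent from both naive lists, which is 49.1% (Wilson 95% interval 36.6 to 61.7, for counting error only). Over all joint regions the share was 28.3%. Only 8 were called in all 4 libraries, or 14.0%, against 41.5% over all. A single one was naive-restricted, the converse, or 1.75%, against 5.11%. Since Hivep3 was picked for this pattern, nothing is read from these shares.

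**Figure D1:**
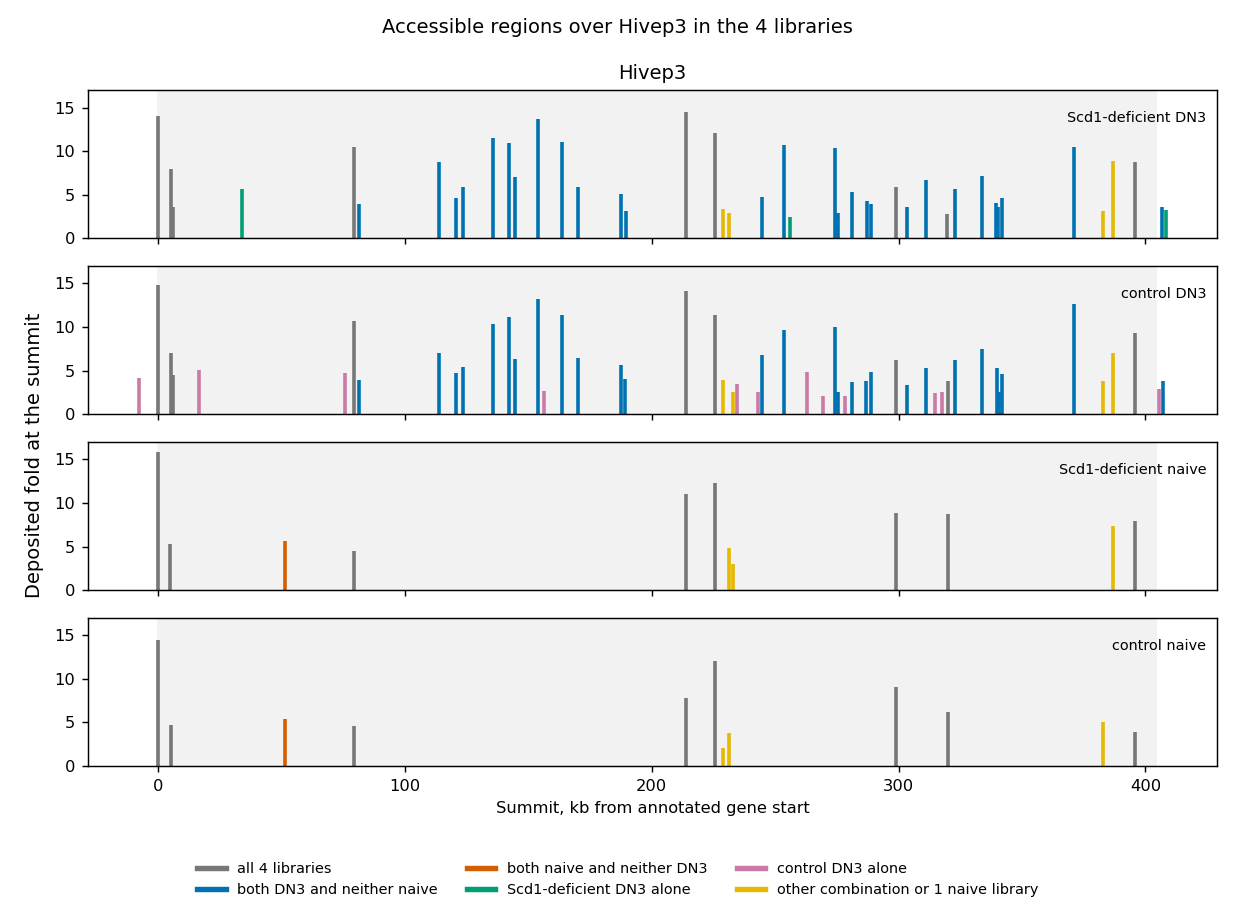
Each line is a region of Hivep3, placed at its summit in kb from the annotated gene start, with the deposited fold at the summit as its height. The panels are the 4 libraries, the grey band is the gene body, and colours give the libraries in which the joint region was called. The DN3 panels hold 44 and 53 regions and the naive panels 12 each, and between 81.0 and 189.7 kb both naive panels are empty.

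Of the 28 DN3-restricted regions of Hivep3, 27 were strung along the gene body downstream of its outer start, and the other lay beyond its far end. The longest run, of 13 joint regions in a row, lay between 81.0 and 189.7 kb from the start with no naive call, and 12 of them were called in both DN3 genotypes. The run spans 108.8 kb, from 119814720 to 119923485. A second run of 13, between 234.5 and 289 kb, had 7 in both DN3 genotypes, and the next longest, of 6 between 322.5 and 371.3 kb, had all 6. In contrast, none of the 5 joint regions centred below 50 kb was DN3-restricted in both genotypes. Exons and introns were not annotated here. Of the 28, 5 lie where Hivep3 overlaps the noncoding gene Gm38632 and 3 where it overlaps Gm36215.

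The strongest DN3-restricted region, at chr4:119896595-119898002, had a −log10 q of 138.6 in Scd1-deficient DN3 cells and 162.7 in control DN3 cells. Its summit held 209 fragments (exact Poisson 95% interval 181.6 to 239.3) in the Scd1-deficient library and 241 (211.5 to 273.4) in the control library, at the same base, 163.7 kb from the start. It was 1408 bp wide in Scd1-deficient and 1327 bp wide in control DN3 cells, and neither naive list had a region there. The second, at chr4:119986832-119988052, had a −log10 q of 121.2 in Scd1-deficient DN3 cells and 103.6 in control DN3 cells, with summits of 185 and 168 fragments. The third, at chr4:120007597-120008487, had 93.4 in Scd1-deficient DN3 cells and 100.2 in control DN3 cells, with 145 and 159 fragments. The genotypes were thus ordered differently at these regions. The Poisson intervals of the fragments, which are not scaled for depth, overlap between genotypes at each of them. They cover counting error only, so the overlap does not decide whether the genotypes differ. The highest folds among the 28 were 13.7 in Scd1-deficient and 13.2 in control DN3 cells, at chr4:119887449-119888229. Over the 28 the median −log10 q was 21.5 in Scd1-deficient DN3 cells and 24.5 in control DN3 cells, against 17 and 19.9 over all regions of this class in the same libraries, and 23 of the 28 reached 10 in each genotype. The widest Hivep3 region of both DN3 lists, at chr4:120019798-120021557, was also of this class, with 1760 bp in Scd1-deficient and 1534 bp in control DN3 cells, but only 20.6 and 16.3 in −log10 q.

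The DN3 lists were longer than the naive ones. With every list held to its 46576 strongest regions, Hivep3 had 24 regions in Scd1-deficient DN3 cells, 23 in control DN3 cells, 11 in Scd1-deficient naive cells and 12 in control naive cells. Of its 30 joint regions, 12 were then DN3-restricted, or 40.0%, against 16.1% over all joint regions, and all 12 were among the 28. These counts come from the same calls by which Hivep3 was chosen. The naive-restricted count was 3 of 30, against 14.8% of joint regions over all, and only 1 of the 3 was naive-restricted in the full lists.

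The 8 joint regions of Hivep3 that all libraries share did not move one way between cell types. The region over the outer start was the strongest of the naive libraries, with a −log10 q of 472.6 in Scd1-deficient and 593.2 in control naive cells. In DN3 cells it had 254.6 in the Scd1-deficient and 275.8 in the control library. Its fold was 14.0 in Scd1-deficient DN3 cells, 14.8 in control DN3 cells, 15.8 in Scd1-deficient naive cells and 14.5 in control naive cells. In DN3 cells the strongest region lay 214 kb inside, at chr4:119947429-119948514, with a −log10 q of 293.3 in the Scd1-deficient and 307.7 in the control library, against 36.7 in Scd1-deficient and 27.1 in control naive cells. Its summit held 382 and 407 fragments in Scd1-deficient and control DN3 cells, against 50 and 47 in Scd1-deficient and control naive cells.

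A shared region just before the inner start, at chr4:119812692-119813400, had a fold of 10.5 in Scd1-deficient DN3 cells and 10.7 in control DN3 cells, against 4.51 in Scd1-deficient and 4.58 in control naive cells. One at chr4:120052899-120054335 ran the other way, with a fold of 2.79 in Scd1-deficient DN3 cells and 3.77 in control DN3 cells, against 8.76 in Scd1-deficient and 6.21 in control naive cells. At both places the DN3 and naive libraries did not overlap in fold. The region at chr4:120032024-120033590 held the widest Hivep3 region of the control naive list, of 1431 bp. It had a fold of 5.93 in Scd1-deficient DN3 cells and 6.26 in control DN3 cells, against 8.85 in Scd1-deficient and 9.12 in control naive cells. It reaches over the start of the noncoding gene Gm38632, which is read from the minus strand, and its 300-base window (chr4:120033344-120033643, minus strand, GRCm38.p6) is shown because a region lay over this start inside Hivep3 in all 4 libraries. None of the motifs searched was found in it, so it has no capitals.
Gm38632: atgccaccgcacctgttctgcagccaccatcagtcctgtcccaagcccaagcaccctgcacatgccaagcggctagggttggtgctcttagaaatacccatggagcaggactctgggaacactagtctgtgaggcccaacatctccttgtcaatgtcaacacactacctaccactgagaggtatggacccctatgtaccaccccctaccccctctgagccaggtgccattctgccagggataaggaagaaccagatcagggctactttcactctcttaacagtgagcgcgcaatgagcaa
With 4 CpG and a GC content of 54.7%, this window was overlapped over 247 bases in Scd1-deficient DN3 cells, 243 bases in control DN3 cells, 128 bases in Scd1-deficient naive cells and 111 bases in control naive cells.

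**Figure D2:**
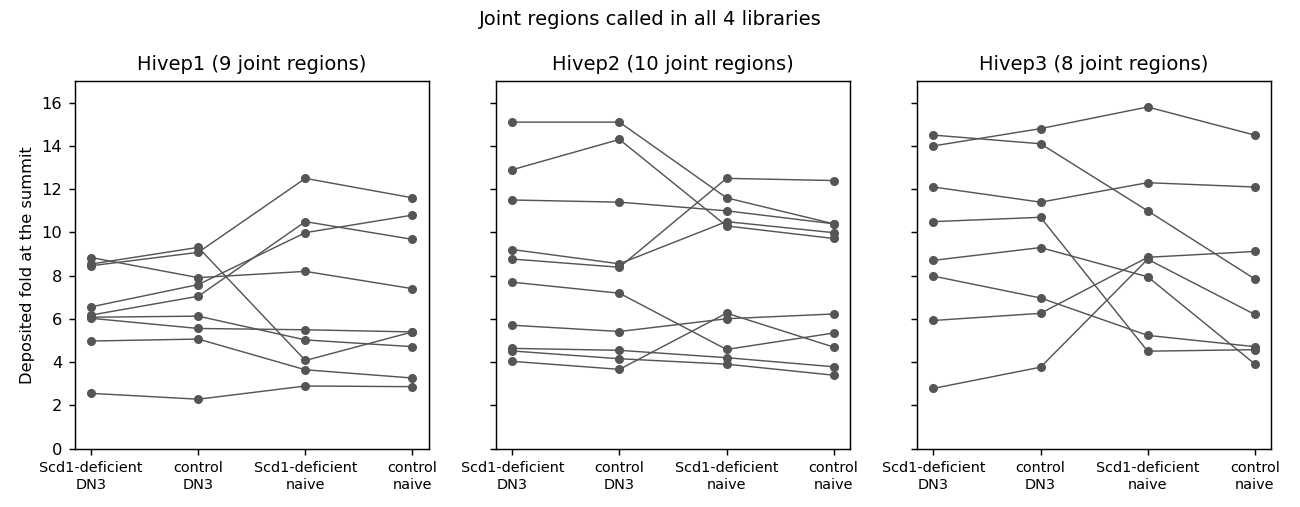
Each line joins the deposited folds, on a linear axis, of 1 joint region called in all 4 libraries, with the highest fold where a library split it. The panels are Hivep1, Hivep2 and Hivep3, and lines run both up and down between the DN3 and naive libraries in each panel.

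The naive-restricted region of Hivep3, at chr4:119784988-119785380, was weak, with a −log10 q of 11.4 in Scd1-deficient and 13.6 in control naive cells. At the edge of the 10 kb flank, the last regions inside on the far side lay 3.77 kb beyond the gene in Scd1-deficient DN3 cells and 2.58 kb in control DN3 cells, with a −log10 q of 5.49 and 9.35. Just outside, 10.2 kb beyond the gene, both DN3 libraries had a region with 82.2 in Scd1-deficient and 85.5 in control cells. The naive lists had none on that side until 144.2 kb beyond the gene.

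Hivep2, on chromosome 10 from 13961609 to 14151378, had about as many regions in naive as in DN3 cells. It had 14 regions in each DN3 list, against 16 in Scd1-deficient naive cells and 15 in control naive cells. They covered 13668 bp in Scd1-deficient DN3 cells and 13711 bp in control DN3 cells, against 17827 bp in Scd1-deficient and 20663 bp in control naive cells. Of its 18 joint regions, 10 were common to all 4 libraries, 4 were naive-restricted (22.2%, Wilson interval 9 to 45.2), and 2 were DN3-restricted (11.1%, 3.10 to 32.8), against 41.5%, 5.11% and 28.3% over all joint regions for these classes in turn. At lists of the same length, the naive-restricted count was 5 of 16, against 14.8% over all, and the DN3-restricted count 1 of 16, against 16.1%. Of those 5, only 3 were among the 4 naive-restricted ones of the full lists. As the members were taken with these counts known, this too is description.

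The strongest naive-restricted region of Hivep2, at chr10:14004801-14005475, had a −log10 q of 45.0 in Scd1-deficient and 37.8 in control naive cells. Its fold was 12 in Scd1-deficient and 8.61 in control naive cells, on summits of 59 and 63 fragments, and no DN3 region overlapped it. The next, at chr10:14016376-14016742, had a −log10 q of 11 in Scd1-deficient and 27.3 in control naive cells, and the third, at chr10:14034082-14035054, 7.63 in Scd1-deficient and 4.70 in control naive cells. The weakest, at chr10:14042920-14043455, had only 1.96 in Scd1-deficient and 2.62 in control naive cells. Its folds were 1.54 in Scd1-deficient and 1.48 in control naive cells. The DN3-restricted regions lay at chr10:13988493-13989164, with 83.1 in Scd1-deficient and 84.2 in control DN3 cells, and at chr10:14040748-14041113, with 18.4 in Scd1-deficient and 15.3 in control DN3 cells. Regions restricted to either cell type thus lay side by side in the gene body, between 26.9 and 81.3 kb from the start.

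Over all libraries the strongest shared region of Hivep2 lay 21.4 kb inside the gene, at chr10:13982354-13983968. Its −log10 q was 331.1 in Scd1-deficient DN3 cells, 341 in control DN3 cells, 397.4 in Scd1-deficient naive cells and 525.7 in control naive cells. Its fold was 15.1 in both DN3 libraries, against 11.6 in Scd1-deficient and 10.4 in control naive cells. At chr10:14085199-14086752 the fold was 11.5 in Scd1-deficient DN3 cells, 11.4 in control DN3 cells, 11 in Scd1-deficient naive cells and 10.4 in control naive cells, and at chr10:13992966-13994231 it was 9.21, 8.55, 10.5 and 9.99 in the same order. No region lay over the annotated start of Hivep2. The start that the promoter table gives, 4.77 kb inside the annotated gene, lay in a broad open stretch, chr10:13964690-13968415. That stretch was called as 1 region of 3670 bp in control naive cells and as 2 regions in each other library. Its summit held 576 fragments in Scd1-deficient DN3 cells, 580 in control DN3 cells, 558 in Scd1-deficient naive cells and 761 in control naive cells, yet the highest folds there were 4.64, 4.55, 4.21 and 3.79 in the same order. The local background under that summit was 123.4, 126.6, 131.8 and 200.2 fragments in the same order, so a broad start has a low fold beside many fragments. The widest Hivep2 region of the Scd1-deficient naive list, of 2748 bp, lay in the joint region chr10:14043754-14047166. Towards the far end, the region at chr10:14115591-14116636, over the noncoding gene Gm51759, had a fold of 8.77 in Scd1-deficient DN3 cells and 8.39 in control DN3 cells, against 12.5 in Scd1-deficient and 12.4 in control naive cells.

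Hivep1, on chromosome 13 from 42051899 to 42185030, shared 9 of its 16 joint regions among all 4 libraries. It had 14 regions in Scd1-deficient DN3 cells and 15 in control DN3 cells, against 9 in Scd1-deficient and 10 in control naive cells. Of its 16 joint regions, 9 were common to all 4 libraries (56.2%, Wilson interval 33.2 to 76.9), 3 were DN3-restricted (18.8%, 6.59 to 43.0), and none was naive-restricted. The shares over all joint regions were 41.5%, 28.3% and 5.11% for these classes in turn. With 16 joint regions the intervals are wide, so nothing is read from the comparison. No joint region of Hivep1 was called in a naive library alone. The last region lay 97.5 kb from the start of this 133.1 kb gene, at chr13:42149357-42150410, with a fold of 8.54 in Scd1-deficient DN3 cells and 9.31 in control DN3 cells, against 4.08 in Scd1-deficient and 5.40 in control naive cells.

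The region over the Hivep1 start, at chr13:42051233-42053256, was the widest of the gene in each library. It had a width of 1956 bp in Scd1-deficient DN3 cells, 1987 bp in control DN3 cells, 1896 bp in Scd1-deficient naive cells and 1968 bp in control naive cells. Its −log10 q was 167.5, 162.3, 211.3 and 294.3 in the same order. Inside the gene the region at chr13:42102978-42104158 had a −log10 q of 187.1 in Scd1-deficient DN3 cells and 157.2 in control DN3 cells, against 115.4 in Scd1-deficient and 148.3 in control naive cells. The one at chr13:42095581-42096627 had a fold of 6.18 in Scd1-deficient DN3 cells and 7.05 in control DN3 cells, against 10.5 in Scd1-deficient and 9.68 in control naive cells. Of the 3 DN3-restricted regions, the strongest, at chr13:42093561-42094022, had a −log10 q of 28.3 in Scd1-deficient and 26.8 in control DN3 cells. The other two stayed between 2.51 and 11.9.

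**Figure D3:**
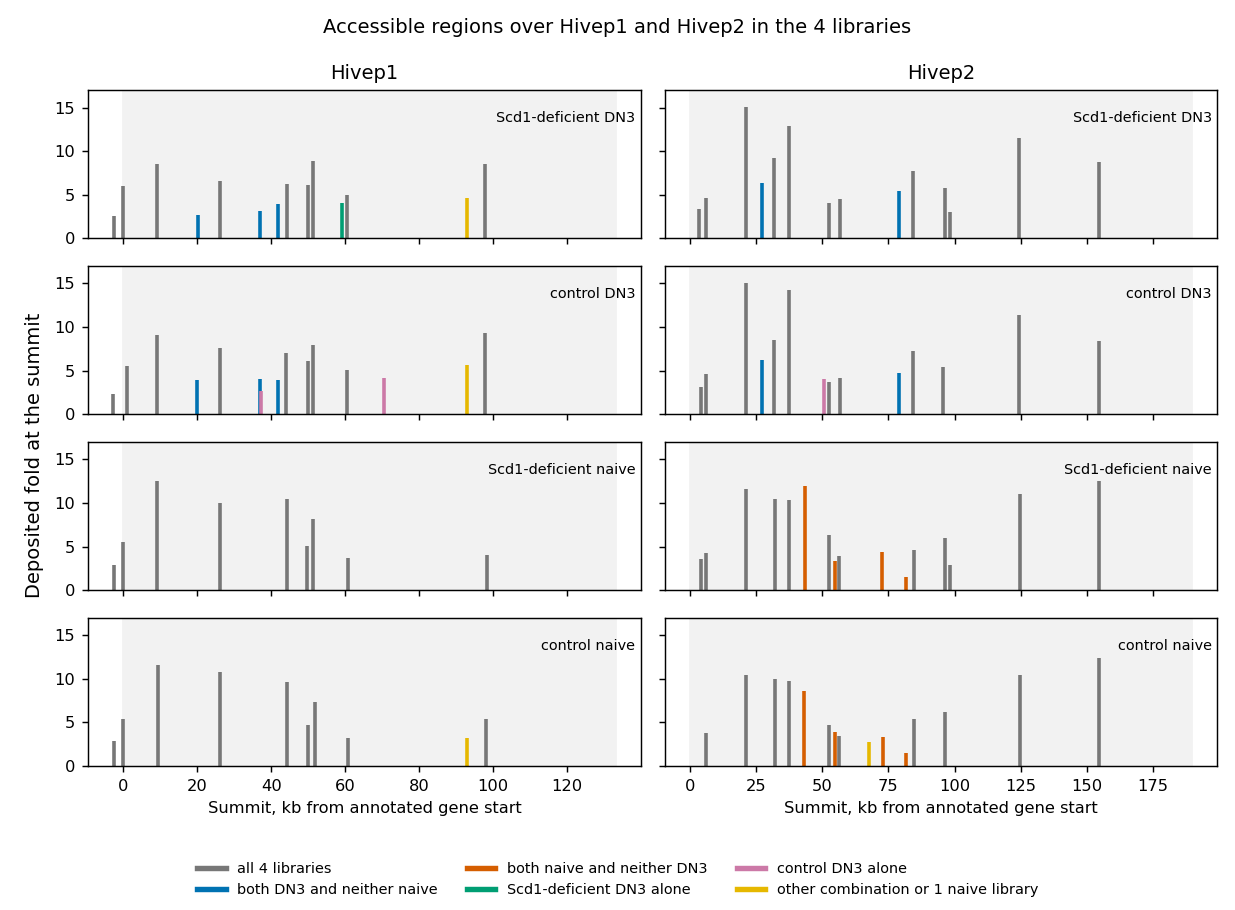
Regions of Hivep1 (left) and Hivep2 (right) are drawn at their summits, in kb from the annotated gene start, with the deposited fold as the height of the line, for the 4 libraries from top to bottom. The grey band is the gene body and colours give the libraries in which the joint region was called. Hivep1 has no naive-restricted region, and the 4 of Hivep2 begin between 43.2 and 81.3 kb from the start.

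The genotypes were compared within each cell type, which asks whether loss of Scd1, an enzyme that makes monounsaturated fatty acids, goes with different accessibility at these genes. In DN3 cells 13 of 53 Hivep3 regions of the control library had no overlap in the Scd1-deficient library, which is 24.5% (Wilson interval 14.9 to 37.6), against 10.4% of all control DN3 regions. In the Scd1-deficient DN3 library 4 of 44 had none in the control, or 9.09% (3.59 to 21.2), against 9.48% of all. Hivep3 was chosen for its control-only count, so that count is not evidence of a difference. The other 40 regions on each side had a counterpart in the other genotype.

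The control-only DN3 regions of Hivep3 were weak and narrow, as were those of the whole list. Their −log10 q ran from 1.82 to 22.8 with a median of 4.33, against a median of 29.8 for the control regions with a counterpart, and their summits held between 18 and 65 fragments. Their widths ran from 217 to 530 bp with a median of 309 bp, against 569 bp for those with a counterpart. The 12 called in the control DN3 library alone had medians of 3.99 and 298 bp, against 5.94 and 295 bp over all joint regions of that class. Of the 13, 3 reached a −log10 q of 10 and 1 was at least 500 bp wide. The strongest, at chr4:119809282-119809498, had 22.8 on 65 fragments (Poisson interval 50.2 to 82.8) and, at 217 bp, the smallest width that occurs in the control DN3 list. The next were at chr4:119750289-119750619, with 11.4, and chr4:119996512-119996876, with 10.6.

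Of these 13, the region at chr4:119966316-119966818 was also called in Scd1-deficient naive cells, with a −log10 q of 2.56, and 12 were called in the control DN3 library alone. That is 21.1% of the joint regions of Hivep3, against 7.16% over all. In the Scd1-deficient DN3 library alone there were 3, or 5.26%, against 6.28% over all. The strongest of those, at chr4:119767520-119767802, had a −log10 q of 13.6 on 30 fragments (20.2 to 42.8). The fourth Scd1-deficient DN3 region without a control DN3 counterpart had 6.65 and was called in both naive libraries.

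**Figure D4:**
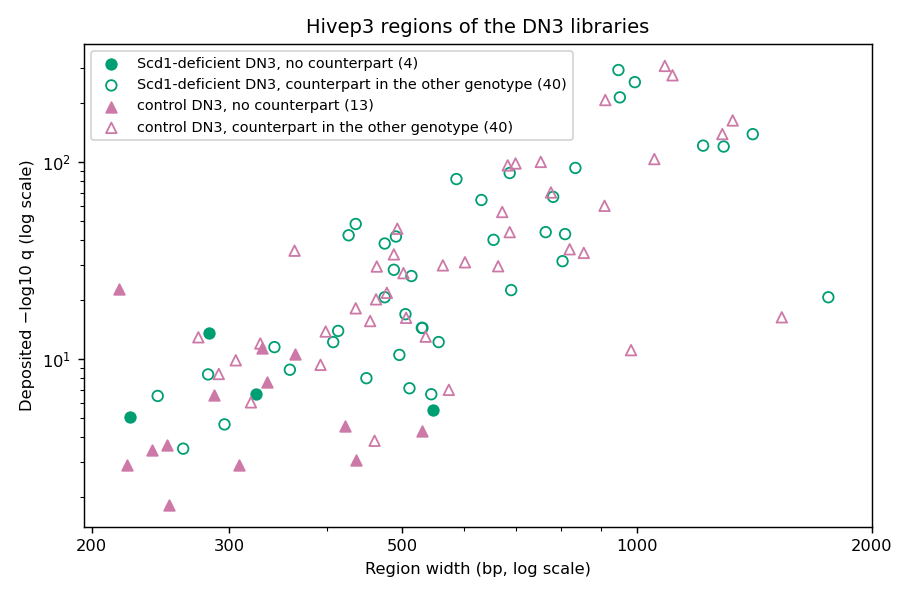
Each point is a Hivep3 region of the Scd1-deficient (circles) or control (triangles) DN3 library, by width in bp and deposited −log10 q, both on log scales. Filled points have no overlapping region in the other genotype. The filled points lie at the narrow and weak end, below a −log10 q of 23 and a width of 550 bp.

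Among the Hivep3 regions that pair 1 to 1 between the DN3 genotypes, the values were close. Over 38 pairs the log2 ratio of the fold in Scd1-deficient to that in control DN3 cells had a median of -0.04 and ran from -0.50 to 0.53, with 16 pairs higher and 22 lower in Scd1-deficient cells. Over all 65258 pairs of these lists the median was -0.01, with quartiles of -0.15 and 0.10. The summits of the genotypes lay a median of 24.5 bp apart at Hivep3, against 17 bp over all pairs, and 27 of the 38 were within 50 bp. Hivep1 had a median log2 ratio of -0.10 over 13 pairs, with 4 higher and 9 lower in Scd1-deficient cells. Hivep2 had 0.08 over 10 pairs, with 8 higher and 2 lower. Above the median of all pairs lay 17 of the 38 pairs at Hivep3, 4 of the 13 at Hivep1 and 9 of the 10 at Hivep2. The quartiles of all pairs describe single pairs, so they do not measure how far the median of a gene can vary.

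At the other members the shares of DN3 regions without a counterpart were near those over all regions. In Scd1-deficient DN3 cells they were 7.14% at both Hivep1 and Hivep2, against 9.48% over all, and in control DN3 cells 13.3% at Hivep1 and 7.14% at Hivep2, against 10.4% over all. In Scd1-deficient DN3 cells Hivep1 had 1 such region, at chr13:42110848-42111073 with a −log10 q of 7.61, and in control DN3 cells it had 2, at chr13:42089112-42089356 and chr13:42122147-42122609, with 5.36 and 7.67. At Hivep2 the Scd1-deficient DN3 library had 1, with 5.16, that lies within a stretch open in all libraries, and the control DN3 library had 1, at chr10:14012071-14012333, with 6.98. All 5 were weak beside the median of the lists, which was 30.5 in Scd1-deficient and 33.8 in control DN3 cells.

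In naive cells the genotypes differed at few regions of the family. Scd1-deficient naive cells had 2 of 37 regions without a control counterpart, both in Hivep3, where all regions of that list gave 12.4%. The stronger, at chr4:120120102-120120683, had a −log10 q of 18.7 and was called in both DN3 libraries as well. Control naive cells had 4 of 37 without a counterpart, where all regions of that list gave 5.77%. They were 2 in Hivep3, 1 in Hivep2 and 1 in Hivep1. The strongest, at chr4:120116259-120117028, had a −log10 q of 12.1 and was also called in both DN3 libraries, and the one at chr10:14028724-14029115, with 2.74, was called in no other library. The log2 ratio of the fold in Scd1-deficient to that in control naive cells had a median of 0.09 at Hivep1 (9 pairs), 0.08 at Hivep2 (12 pairs) and 0.14 at Hivep3 (10 pairs), against 0.13 over all 42394 pairs. The widest Hivep3 region of the Scd1-deficient naive list, of 1437 bp at chr4:120052899-120054335, was 974 bp wide in control naive cells.

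Between the cell types, regions of the family that pair 1 to 1 had folds that differed in both directions. In the Scd1-deficient libraries the log2 ratio of DN3 to naive fold had a median of 0.11 at Hivep1, 0.14 at Hivep2 and -0.03 at Hivep3, against -0.08 over all pairs. In the control libraries it was 0.07 at Hivep1, 0.13 at Hivep2 and 0.03 at Hivep3, against 0.02 over all pairs. Single pairs at Hivep3 ran from -1.65 to 1.21 in the Scd1-deficient and from -0.72 to 1.25 in the control libraries. Measured instead as summit fragments over the background pileup of the library, the log2 ratio of DN3 to naive cells had a median of -0.24 at Hivep1, -1.08 at Hivep2 and 0.60 at Hivep3 in the Scd1-deficient libraries, against -0.32 over all pairs. In the control libraries it was 0.00 at Hivep1, -1.38 at Hivep2 and 1.07 at Hivep3, against -0.15 over all pairs. The fold is relative to the local background around each summit, and on that scale the medians of Hivep2 and Hivep3 lie closer to 0, with the opposite sign at Hivep2 in both genotypes and at Hivep3 in the Scd1-deficient libraries.

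**Figure D5:**
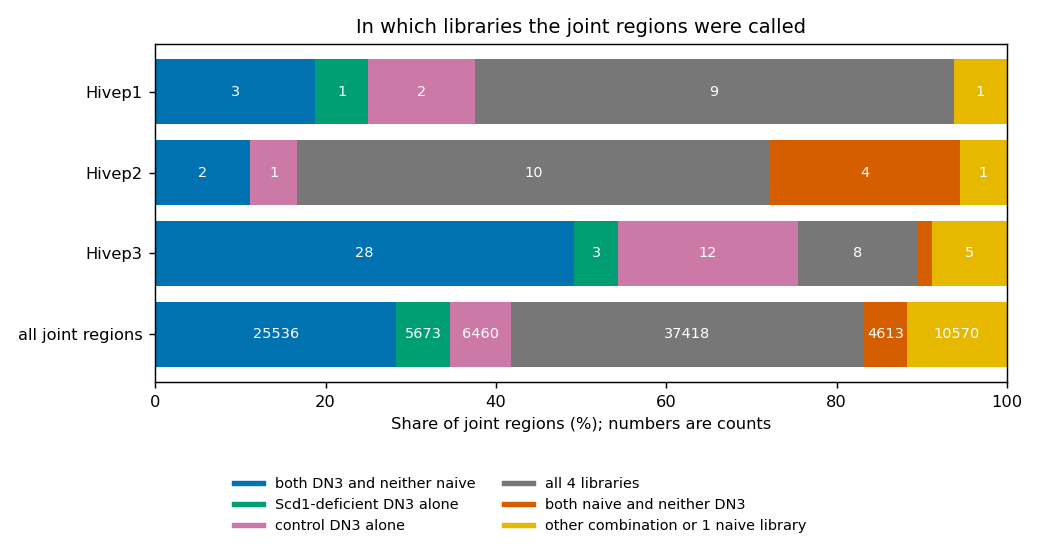
Bars give, for each gene and for all 90270 joint regions, the share in percent by the libraries in which they were called, and the numbers in the bars are counts. Hivep3 has 28 of 57 in both DN3 and neither naive library, Hivep1 has 3 of 16 and Hivep2 has 2 of 18.

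Set beside other genes, Hivep3 was dense in regions. Joint regions per 100 kb of gene and flanks numbered 13.4 at Hivep3, 10.4 at Hivep1 and 8.58 at Hivep2, against a median of 3.41 over 2427 protein-coding genes of at least 100 kb. Of 21631 protein-coding genes, 2 had 28 or more DN3-restricted joint regions, Hivep3 among them, a count that grows with gene length. As a share of joint regions, 50 of the 406 genes with at least 20 of them, or 12.3%, reached the value of Hivep3, and the median gene had 25.3%. These are ranks of a gene taken for its rank. By the share of joint regions called in each of the 4 libraries, the genes nearest to Hivep3 among those 406 were Kalrn (Euclidean distance 0.078), Exoc4 (0.093) and Pde7b (0.104). Nearest to Hivep2 were Stk24 (0.043), Elf1 (0.054) and Ets1 (0.066), and nearest to Hivep1 were Igf1r (0.052), Prkcb (0.063) and Zfp704 (0.063).

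Genes of the pathways that Hivep proteins act in were counted in the same way. Over all protein-coding genes, 48.0% of joint regions were common to all 4 libraries, 24.4% were DN3-restricted and 4.22% naive-restricted. The 15 NF-kB genes, from the subunits Nfkb1 and Rela to the inhibitor Nfkbia, had 89 joint regions, 54 of them in all 4 libraries (60.7%), 9 DN3-restricted and 9 naive-restricted (10.1% each). Nfkb1 had 2 DN3-restricted and 3 naive-restricted joint regions of 23. The 15 SMAD and BMP genes had 137, with 69 in all 4 libraries (50.4%), 31 DN3-restricted (22.6%) and 8 naive-restricted (5.84%), each close to the share over all genes. Among them Smad1, a mediator of BMP signals, had 5 DN3-restricted of 10, and Smad7, an inhibitor of the pathway, had none of 10. The 15 genes of AP-1 and partners had 151, with 67 in all 4 libraries (44.4%), 32 DN3-restricted (21.2%) and 10 naive-restricted (6.62%), again close to it.

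Runx2, the bone transcription factor that Hivep3 opposes in osteoblasts, accounted for 16 of those 32, with 3 naive-restricted regions among its 40. Runx1, the T lineage factor, had 8 and 2 of 41. The median gene had 1 DN3-restricted joint region in the NF-kB list, 2 in the SMAD and BMP list and 1 in the AP-1 and partner list, against 1 over the 17284 protein-coding genes with any joint region. Its naive-restricted median was 0 in each list and over all genes. At the Il2 gene, 1 of the 2 joint regions was DN3-restricted and the other naive-restricted.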

How the data were processed

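ATAC-seq peak lists of 4 mouse libraries were used, 1 per genotype and cell type. Per the submitters' processing notes, reads were handled with Trimmomatic, BWA and MACS2 on mm10. Not given in the sources used here were settings, duplicate handling and any Tn5 shift. Per library, the authors deposited 1 list. Its fold is the ratio of the summit pileup to local background, its deposited −log10 p and −log10 q belong to that summit within its library, and its deposited score is 10 times the −log10 q cut to a whole number. Summit positions are also deposited.

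Fragments at each summit were recovered from fold and −log10 p, whole within 0.05 for 100% of regions. The weakest q was 0.048 or 0.049. No read total was used. Genes and starts came from RefSeq tables of GRCm38.p6. Regions counted as shared at 1 bp of overlap. Intervals are Wilson (shares) or exact Poisson (fragments) at 95%, for counting error only. No test was made, as a group is 1 library. Steps were tested on simulated data.

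Members and lists were chosen with earlier results of these data known. The regions named were, per member, those over gene ends, the 3 of highest −log10 q per class, the widest per library and those nearest the flank edge, and the 3 nearest genes by library shares. Other regions, and the pathway genes named, were chosen after their values were seen. Alternatives were a −log10 q of at least 10, a width of at least 500 bp, lists of equal length, no flank or a 50 kb flank, 50% overlap and merging within 200 bp. Python 3.11.15, pandas 2.3.3, NumPy 2.4.6, SciPy 1.17.1 and Matplotlib 3.10.9 were used.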

Additional observations from a re-analysis of the deposited data

Results flagged for a closer look

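The covered length of Hivep3 differed between genotypes in opposite directions in the cell types. It was 27227 bp in Scd1-deficient DN3 cells and 30703 bp in control DN3 cells, a difference of -3476 bp, and 8742 bp in Scd1-deficient naive cells and 8188 bp in control naive cells, a difference of 554 bp. With 1 library per group the difference between the cell types was not tested. The whole lists covered 57.83 Mb in Scd1-deficient and 59.84 Mb in control DN3 cells, and 42.13 Mb in Scd1-deficient and 44.93 Mb in control naive cells. Both totals were thus lower without Scd1, the direction of Hivep3 in DN3 cells but not in naive cells. Median region widths over the lists were 645 bp in Scd1-deficient and 666 bp in control DN3 cells. They were 732 bp in Scd1-deficient and 894 bp in control naive cells. The part of these list differences in the Hivep3 values was not tested.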

How the results depend on the processing

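Of 36 recomputed family counts, 24 were within 1.5 times the reported count and 12 were not. The 33 DN3-restricted joint regions became 14 with lists of equal length and stayed between 22 and 36 otherwise. The 5 naive-restricted ones became 3 at a width of at least 500 bp and 8 with lists of equal length. Some of those 8 were not naive-restricted in the full lists. With a −log10 q of at least 10, DN3 regions without a counterpart numbered 1 in Scd1-deficient cells (6 in full lists) and 6 in control cells (16), and control naive regions 2 (4). This limit was applied to both lists first, so a weaker counterpart could drop out. Only 3 of the 16 control DN3 regions, all at Hivep3, reached 10. Others of the 6 have a counterpart in the full lists, as at chr4:120052899-120054335, with 13.8 in control and 6.63 in Scd1-deficient DN3 cells. At a width of at least 500 bp they numbered 2 in Scd1-deficient DN3, 1 in control DN3, 0 in Scd1-deficient naive (2 in full lists) and 1 in control naive cells. With naive lists of equal length they numbered 1 in Scd1-deficient and 7 in control cells. In DN3 cells control-only regions outnumbered Scd1-deficient-only ones at Hivep3 in each setting but the width of at least 500 bp, where both had 1. Hivep3 was chosen for its control-only count, so these recounts of the same calls are not evidence of a difference. For joint regions, lists of equal length reach −log10 q limits of 20.2 and 22.9 in Scd1-deficient and control DN3 cells. In Scd1-deficient and control naive cells the limits are 5.91 and 1.32, so fewer DN3 regions are tested. For regions without a counterpart, equal length was set within each cell type, at 76437 regions in DN3 and 46576 in naive cells. In DN3 cells those were nearly the full lists. In naive cells the control list stayed whole and the Scd1-deficient list lost its weakest regions. Some control naive regions counted there thus have a counterpart in the full lists, as at chr13:42112178-42113107, with 4.53 in Scd1-deficient naive cells. The cause of the other moves was not tested. The flank, the 50% overlap and the 200 bp merge moved no family count by over 1.5 times. No paired analysis was possible because there is 1 library per group and no test.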
